A study of Homo sapiens with 8 samples.

Results

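Cohesin and condensin genes were followed through 766 guide RNAs on 110 exon-exon junctions of 7 genes, out of 46829 guides on 6735 junctions of 1250 genes in the whole table. Members were the genes whose symbol belongs to the cohesin, condensin or SMC5/6 subunits and regulators and whose guides were not listed as non-essential controls. They were RAD21 (74 guides, 11 junctions), NIPBL (249 guides, 34 junctions), SMC2 (89 guides, 15 junctions), NCAPG (109 guides, 15 junctions), NCAPH (80 guides, 13 junctions), SMC6 (142 guides, 19 junctions) and NSMCE1 (23 guides, 3 junctions). STAG2, a cohesin subunit gene, was present only as a non-essential control and was left out. The deposited table typed RAD21, NIPBL, SMC2, NCAPG and SMC6 as essential under Cas13 and NCAPH and NSMCE1 as not essential, by a criterion that was not stated and that may rest on these same values. Each of the 110 junctions fell within the span that RefSeq gives its gene.

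The cells were A375, an established human melanoma line, here a single clone carrying a TetO-RfxCas13d construct, that is, an RNA-cutting CRISPR nuclease switched on by doxycycline, together with a lentiviral guide pool. Untreated cells were sampled at Day 0 and cells under 1 ug/ml doxycycline at Day 7, Day 14 and Day 21, with 2 replicates of each, 8 libraries in all. Every group shares the clone, the construct and the guide pool. No untreated cells were sampled after Day 0, so time in culture and doxycycline cannot be told apart. Each value is the log2 fold change of a guide's abundance against Day 0 of its own replicate, where −1 is a 2-fold loss and 0 no change relative to the scaling of the library.

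SMC complexes are rings built on a pair of SMC ATPases and a kleisin protein that closes them around DNA. Cohesin holds sister chromatids together from replication until anaphase and folds interphase chromatin into loops. Condensin compacts mitotic chromosomes, and the SMC5/6 complex acts in DNA replication and repair. Cells that lack cohesin or condensin function fail in chromosome segregation, and guides that deplete such a gene are then lost from a growing pool.

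Whole-series facts that bear on these values are few. The median guide over the whole table stood at −0.33 in replicate 1 and −0.28 in replicate 2 at Day 21, and the median non-targeting guide at −0.038 and 0.00093. Member guides had medians of −0.42 and −0.36. Read counts were not given, but the fold changes had a whole-number structure from which a smallest possible Day 0 number can be read for every guide. Its median over member guides was 79 in replicate 1 and 111.5 in replicate 2. At Day 21, 30 and 16 member guides had an implied number of 1, the lowest possible, below which further loss could not be measured. Implied numbers are lower bounds and may include a pseudocount, so a 1 need not be a count of 1.

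Guides against NIPBL were lost at 15 of 34 junctions along the transcript, RAD21 held both nearly vanished guides and a guide that rose, and SMC2 and NCAPG fell at 2 junctions each. SMC6 fell at 4 of 19 junctions and NSMCE1 at 1 of 3, and no NCAPH junction was called. Of all 6401 junctions tested, 25.3% were called lower, so SMC2, NCAPG and SMC6 were at or below that share. At Day 21 the gene mean over guides passed the limma test (adjusted p under 0.05) for 1 of the 7 genes, NIPBL, a call that was lost with the median of guides or with centring on all guides, and 6 of the 7 were below 0 in both replicates. Among all 1223 genes tested, 20.8% were called lower and 61.3% were below 0 in both replicates. No member was called at Day 7, where 1 had an unadjusted p under 0.05 and 3.92% of all genes were called lower. The median of the 7 gene means was −0.44, beside −0.28 over all genes tested. Every member had at least 20 guides, however. Over the 592 genes with at least 20 guides the median was −0.43, and 472 of the 592 were below 0 in both replicates.

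The call count differed between fits. When only the 592 genes with at least 20 guides were fitted, a choice made after seeing the data, 6 of the 7 members were called lower, all except NCAPH, and so were 59.8% of those 592 genes. The same fit called 0 members at Day 7 (1 unadjusted, against 8.61% of genes called lower), 4 at Day 14 (against 57.3%) and 6 for Day 21 minus Day 7 (against 53.0%). It gave all 7 members the same SE at Day 7 (0.12) and for Day 21 minus Day 7 (0.16). Those p-values take no account of a member's own replicate spread. RAD21, at −0.67 and −0.16 for Day 21 minus Day 7, had a limma adjusted p of 0.0208 there, against 0.212 in the main fit. A fit of all days together with the replicate number as a block also called 6, NCAPH again being the exception, with 45.5% of all 1223 genes called lower. That block takes a constant difference between the replicates out of the spread, so its p-values do not measure such a difference. For NSMCE1 the Day 21 SE went from 0.21 to 0.10. Fits of all days together also treat days that share a Day 0 library as independent. With only 7 members, the 1 call of the main fit (14.3%, against 20.8% of all genes) lay near the background share and cannot be placed below it. The 6 calls (85.7%) lay above the 59.8% and 45.5% of their own fits. The number of members called thus changed with the fit, and their place against the background was not tested.

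NIPBL encodes the cohesin loader, the protein that with MAU2 places cohesin on chromatin. Its gene mean was 0.035 and −0.14 in the replicates at Day 7, −0.48 and −0.63 at Day 14, and −1.07 in both at Day 21. The replicates thus lay on either side of 0 at Day 7 and were nearly equal at Day 21. The Day 21 mean was −1.07 ± 0.0023 (SD, n = 2; SE 0.14, limma adjusted p 0.0231), and NIPBL ranked 204th lowest of the 1223 genes. Among the 479 tested genes typed essential, NIPBL ranked 162nd lowest. The Day 21 call was lost with the median of guides (−0.85, limma adjusted p 0.103) and with values centred on all guides (−0.76, adjusted p 0.0708). The Day 14 mean of −0.55 did not pass (adjusted p 0.0568). The change from Day 7 to Day 21, tested within replicates, was −1.02 ± 0.13 (SD, n = 2; limma adjusted p 0.00402), and 23.5% of all genes were called lower in that comparison. That call too was lost with the median (−0.83, adjusted p 0.116) and with centring on all guides (−0.75, adjusted p 0.0535).

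Low values were spread over many NIPBL guides. Of 249 guides, 137 (55.0%) were below 0 in both replicates at Day 21, against 38.7% of all guides and 44.9% of guides typed essential. Another 22 were above 0 in both. The median guide stood at −0.80 and −0.90. Guides at −1 or lower in both replicates numbered 69 (27.7%, against 17.1% of all guides and 23.1% of guides typed essential). Single guides called lower numbered 36 (14.5%, against 11.1% of all guides).

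All 34 NIPBL junction means were below 0, from −3.72 to −0.13, and 31 were below 0 in both replicates. At junction level 15 of the 34 (44.1%) were called lower, against 25.3% of the 6401 junctions tested in the table. The called junctions ran from the first targeted junction, chr5:36877178-36953617 (hg38 per the submitters' processing notes), with −1.55 and −1.21 in the replicates, to the last, chr5:37061018-37063789, with −1.0 and −1.12. Means over the first and the last 17 junctions along the transcript were close, −1.18 and −1.17 against −0.93 and −0.92.

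The lowest NIPBL junction was chr5:37001078-37002661, the 12th of the 34 from the 5′ end, with −2.78 in replicate 1 and −4.67 in replicate 2 (SD 1.34; limma adjusted p 1.44e-23). The Day 21 junction fit gave every junction the same standard error, 0.36, so junction p-values follow the mean alone and take no account of how far apart a junction's own replicates lie. All 7 of its guides were below 0 in both replicates and 5 were called lower. At Day 7 it had stood at −0.48 and −0.20, and at Day 14 at −2.12 and −2.28. Neighbouring junctions differed: chr5:37000888-37000988, the next one upstream, had −1.29 and −2.34, while chr5:37002765-37003260, the next one downstream, had −0.081 and −0.46. The lowest NIPBL guide, number 5 of the lowest junction, went to −3.92 in replicate 1 and −7.83 in replicate 2 (limma adjusted p 5.56e-06), where its implied number fell from 127 to 8 and from 208 to 1. At the other end, guide 3 of chr5:37020877-37022050 stood at 1.91 and 1.08 (adjusted p 0.363).

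RAD21 encodes the kleisin that closes the cohesin ring and is cut by separase at anaphase. Its gene mean was −0.22 and −0.45 at Day 7, −0.66 and −0.54 at Day 14, and −0.89 and −0.61 at Day 21. Both replicates were below 0 at each day, which held for no other member at Day 7. The Day 7 mean of −0.33 did not pass after adjustment (unadjusted limma p 0.0274, adjusted 0.243). The Day 14 mean of −0.60 did (SE 0.13, adjusted p 0.0456), where 22.1% of all genes were called lower. The Day 14 call was lost with the median of guides (−0.024, limma adjusted p 0.952) and with values centred on non-targeting guides (−0.58, adjusted p 0.0518) or on all guides (−0.36, adjusted p 0.161). The Day 21 mean was −0.75 ± 0.20 (SD, n = 2; adjusted p 0.0603).

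RAD21 guides were found on both sides of 0, with 11 of 74 called lower (14.9%, against 11.1% of all guides) and 1 called higher (against 0.218% of all guides). The median guide stood at −0.14 in replicate 1 and 0.27 in replicate 2 at Day 21, and the median of guides in place of the mean turned the sign of the gene to 0.068. Guides at −1 or lower in both replicates numbered 14 of 74 (18.9%, against 17.1% of all guides and 23.1% of guides typed essential). Guides at 1 or higher in both replicates numbered 12 of 74 (16.2%, against 2.73% of all guides and 2.28% of non-targeting guides). Of the 592 genes with at least 20 guides, 5 had a higher share of such guides than RAD21. In the other members that share ran from 0.0% in NSMCE1 to 7.50% in NCAPH.

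The 12 high RAD21 guides lay on 7 junctions and the 14 low ones on 6, and 5 junctions held guides of both kinds. Values of the high guides ran from 1.04 to 2.63 with a median of 1.63 at Day 21, and the same guides had a median of 1.00 at Day 14 and 0.37 at Day 7. Their implied Day 0 numbers lay between 52 and 251. These guides were picked by their Day 21 values, and all days share the Day 0 library, so the earlier values are a description. Single guides were called higher in 1 case among all 766 member guides, and that guide was one of these. It was guide 1 of chr8:116847691-116848945, with 2.74 in replicate 1 and 2.52 in replicate 2 (limma adjusted p 0.0275), whose implied number rose from 52 to 332 and from 146 to 919.

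The same junction, the last one targeted toward the 3′ end, was also the lowest of RAD21, with a mean of −3.41 and −3.01 in the replicates (limma adjusted p 8.66e-18). Beside guide 1 it held guide 2 at −6.94 and −6.96 and guide 5 at −6.64 and −7.15, each at an implied number of 1 in both replicates. At chr8:116852708-116854244 high and low guides lay side by side as well. The meaning of guide numbers was not stated. Guide 6 there stood at −5.77 and −6.78, guide 7 at −6.83 and −7.30 and guide 8 at −6.07 and −5.59, while guide 1 stood at 2.13 and 2.51 and guide 3 at 1.59 and 1.03. Guide 7 was the lowest of all member guides at Day 21 (mean −7.07, limma adjusted p 2.09e-07), at an implied number of 1 in both replicates. Among guides at 1 the value follows the Day 0 number, so their order does not rank loss.

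RAD21 guides were also lost early. At Day 7, 8 of the 766 member guides were called lower (1.04%, against 2.1% of all guides), and 7 of these 8 were RAD21 guides, on 3 junctions. Guide 7 of chr8:116852708-116854244 already stood at −3.11 and −7.44 at Day 7, the latter with an implied number of 1. That lowest value did not last, since the replicate 2 number rose to 11 by Day 14 (−4.11) before returning to 1. Replicate 1 kept falling, to −6.22 by Day 14. The mean of this junction at Day 7 was −1.02 and −1.81, with a limma adjusted p of 0.0708. Of the 10 RAD21 junctions tested, 4 were called lower at Day 21 (against 25.3% of all junctions), the other two being chr8:116858458-116861840 (−1.66 and −1.35) and chr8:116856771-116857266 (−1.95 and −0.63), and the remaining ones ran up to 0.59. Across the 74 guides the replicates correlated at 0.72 (Pearson's r, a description across guides that share a transcript and a Day 0 library), the highest of the 7 genes, where the others ran from 0.19 in NCAPH to 0.56 in SMC2. Per replicate, NIPBL minus RAD21 was −0.18 and −0.46. Differences between genes are given per replicate and were not tested.

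SMC2 encodes the ATPase subunit that condensin I and condensin II share with SMC4. Its gene mean was 0.046 and −0.031 at Day 7, −0.40 and −0.21 at Day 14, and −0.57 and −0.31 at Day 21. The Day 21 mean of −0.44 ± 0.19 (SD, n = 2) did not pass the test over all genes (limma adjusted p 0.152). Most of its 11 tested junctions stood near 0, with a median of −0.077, and 2 were called lower (18.2%, against 25.3% of all junctions).

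These 2 junctions were far from the rest. The last one targeted, chr9:104129845-104132008, had −3.47 and −3.02 (limma adjusted p 3.96e-18), and chr9:104114829-104116199 had −2.27 and −2.34 (adjusted p 1.62e-09). The other 9 tested junctions lay between −0.67 and 0.43. On the last junction 7 of 8 guides were below 0 in both replicates and 4 were called lower, among them guide 4, the lowest of SMC2, at −6.51 and −7.23 (adjusted p 2.19e-07) with an implied number of 1 in both replicates. Guide 2 of that junction stood at 0.79 and 1.61. The highest SMC2 guide, number 4 of chr9:104118375-104120026, stood at 0.84 and 3.75 (adjusted p 0.0863). At Day 7 both junctions were near 0, with 0.080 and −0.012 on the last and −0.086 and −0.12 on the other, and at Day 14 they had reached −1.70 and −1.51 and −1.67 and −1.83. Another 4 SMC2 junctions had fewer than 3 guides and were not tested.

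NCAPG encodes a HEAT-repeat subunit of condensin I. Its gene mean was 0.10 and −0.14 at Day 7, −0.20 and −0.28 at Day 14, and −0.48 and −0.40 at Day 21. The Day 21 mean of −0.44 ± 0.054 (SD, n = 2) did not pass over all genes (limma adjusted p 0.123). Of its 14 tested junctions 2 were called lower (14.3%, against 25.3% of all junctions), and these were neighbours among the targeted ones. Junction chr4:17817453-17817938 had −2.13 and −2.29 (adjusted p 8.06e-09), and chr4:17814998-17815273 had −1.35 and −1.44 (adjusted p 0.000579).

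The other 12 NCAPG junctions lay between −0.58 and 0.043. The first 7 tested junctions along the transcript averaged −0.82 and −0.60, and the last 7 averaged −0.18 and −0.24. In the lowest junction, guide 4 stood at −5.57 and −5.56 (limma adjusted p 3.85e-06), whereas guide 2 stood at 0.15 and 0.40. The highest NCAPG guide, number 3 of chr4:17831116-17834298, stood at 1.20 and 3.21 (adjusted p 0.094). SMC2 minus NCAPG at Day 21 was −0.094 in replicate 1 and 0.099 in replicate 2, a difference that changed sign between replicates.

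NCAPH encodes the kleisin of condensin I. Its gene mean was 0.12 and −0.11 at Day 7, −0.13 and −0.070 at Day 14, and 0.057 and 0.21 at Day 21. None of these passed, and the Day 21 mean was 0.13 ± 0.11 (SD, n = 2; limma adjusted p 0.579). No NCAPH junction of the 10 tested was called, their means running from −0.32 to 0.77, and 1 of its 80 guides was called lower (1.25%, against 11.1% of all guides). That guide, number 7 of chr2:96354388-96359044, stood at −3.04 and −4.61 (adjusted p 0.000865) and had been at −4.11 and −6.47 at Day 14. The highest, number 7 of chr2:96360710-96364480, stood at 2.12 and 2.46 (adjusted p 0.0683).

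NCAPG minus NCAPH at Day 21 was −0.54 in replicate 1 and −0.62 in replicate 2, and SMC2 minus NCAPH was −0.63 and −0.52. The SDs of these differences, 0.056 and 0.081, rest on 2 values each, and the differences were not tested. The Day 21 SEs of the gene means were 0.16 for SMC2, 0.14 for NCAPG and 0.15 for NCAPH. With the median of guides the Day 21 values lay closer together, at −0.12 for SMC2, −0.20 for NCAPG and 0.094 for NCAPH. NCAPH was the member with more than a single junction category. Its 67 guides on common junctions averaged 0.071 and 0.31, its 8 guides on a fully_unique junction −0.029 and −0.18, and its 5 guides on a partial_unique junction −0.0015 and −0.48. The order of the categories was not the same in both replicates.

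SMC6 encodes an ATPase of the SMC5/6 complex. Its gene mean was 0.045 and −0.11 at Day 7, −0.42 and −0.58 at Day 14, and −0.66 and −0.53 at Day 21. The Day 21 mean of −0.60 ± 0.087 (SD, n = 2) did not pass over all genes (limma adjusted p 0.0739). Of 142 guides, 64 (45.1%) were below 0 in both replicates and 16 above 0 in both, and the median guide stood at −0.43 and −0.49.

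Of 19 SMC6 junctions, 4 were called lower (21.1%, against 25.3% of all junctions) and 12 were below 0 in both replicates. The lowest were the first 2 targeted from the 5′ end, chr2:17741729-17745826 with −1.86 and −1.25 (limma adjusted p 0.0001) and chr2:17731877-17738220 with −2.07 and −1.68 (adjusted p 1.35e-06). Junction chr2:17721038-17721141 had −1.33 and −0.98. The last of the 4, chr2:17666517-17670422, was called on −1.65 and −0.28, replicates that differed more than their mean. The lowest SMC6 guide, number 6 of chr2:17731877-17738220, stood at −7.10 and −3.27 (adjusted p 3.54e-05), and the highest, number 4 of chr2:17725358-17726388, at 1.5 and 2.40 (adjusted p 0.154).

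NSMCE1 encodes a RING-domain subunit of the SMC5/6 complex. Its gene mean over 23 guides was −0.073 and 0.21 at Day 7, −0.47 and −0.052 at Day 14, and −0.73 and −0.13 at Day 21. The replicates differed by more than the Day 21 mean of −0.43 ± 0.42 (SD, n = 2; limma adjusted p 0.254). Its middle junction, chr16:27233147-27234187, was called lower on −1.53 and −0.56 (adjusted p 0.0154), and the other 2 stood at −0.51 and 0.26. That junction held both the lowest NSMCE1 guide, number 1 at −5.18 and −2.48 (adjusted p 0.00117), and the highest, number 3 at 0.65 and 1.23 (adjusted p 0.69). SMC6 minus NSMCE1 was 0.071 in replicate 1 and −0.40 in replicate 2, so no order of these genes held in both.

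Across all members, 28 of 101 tested junctions were called lower at Day 21 (27.7%, against 25.3% of all junctions tested), and each of the 28 was negative in both replicates. Junctions below 0 in both replicates numbered 64 of 101, against 54.5% of all junctions tested, and 9 were above 0 in both. The 9 junctions with fewer than 3 guides were not tested. The called junctions came from 6 of the 7 genes. No member junction was called at Day 7, where 4 had an unadjusted limma p under 0.05 and 0.625% of all junctions were called lower, and 21 were called at Day 14 (20.8%, against 21.9% of all). Of these 21, 19 were also called at Day 21. Among single guides, 38 of 766 were called lower at Day 14 (4.96%, against 7.96% of all guides), 75 at Day 21 (9.79%, against 11.1%) and 45 for Day 21 minus Day 7 (5.87%, against 6.4%). These shares lay near those of the whole table, and their order at Day 21 turned in the fit of all days together (12.0%, against 11.4% of all guides) and in that fit with the replicate block (161 of 766, against 19.3%). Without a test, 19.1% of member guides were at −1 or lower in both replicates, against 17.1% of all guides, and 41.9% were below 0 in both, against 38.7%. All guides include controls and genes typed not essential, and among guides typed essential the order turned. There, 20.7% of member guides were at −1 or lower in both replicates, against 23.1% of all guides of that type. Below 0 in both were 44.3%, against 44.9%. The spread of junction means within a gene was widest in RAD21 (SD 1.27 over junctions) and SMC2 (1.16) and narrowest in NCAPH (0.32).

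Partner genes of chromosome cohesion and segregation were taken from a list of 35, of which 10 had been measured with at least 3 guides: WDHD1, CTCF, PLK1, BIRC5, CDCA8, CDC20, TOP2A, ATR, CHEK1 and DSCC1. At Day 21, 2 of the 10 were called lower, near the 20.8% of all genes, and none higher. Of the 10, 8 were below 0 in both replicates, against 61.3% of all genes, and their median was −0.43, beside −0.28 over all genes. All but BIRC5 (8 guides) had at least 20 guides. Over the 592 genes with at least 20 guides the median was −0.43 as well, and 472 were below 0 in both replicates. TOP2A, the topoisomerase that untangles sister chromatids, had −1.09 and −1.14 (limma adjusted p 0.0214). CTCF, which stops loop extrusion by cohesin, had −0.80 and −0.92 (adjusted p 0.0371). CHEK1 (−0.70, adjusted p 0.0538) and WDHD1 (−0.70, adjusted p 0.0652), acting in the replication checkpoint and at the replication fork, did not pass. DSCC1, a subunit of the clamp loader that aids cohesion, stood at 0.077 and −0.083. The control gene STAG2, with 6 guides on 2 junctions, stood at 0.37 and 0.39 (adjusted p 0.16).

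The deposited GeCKO gene score, a gene value named after a Cas9 knockout library whose making was not stated, did not order the members as the fold changes did. NCAPG had the lowest score of the members (−1.45, 101st lowest of 837 scored genes), followed by SMC6 (−1.36), NSMCE1 (−1.14), RAD21 (−1.09), SMC2 (−1.004), NIPBL (−0.93) and NCAPH (−0.91). NIPBL, the lowest member by Day 21 mean, was thus 700th by this score. NCAPH was the highest member by both.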

How the data were processed

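The authors deposited 1 table of log2 fold changes, covering every guide at Days 7, 14 and 21 in both replicates, per the file headers. The table also holds a GeCKO gene score per gene, deposited by the authors without a method. The submitters' processing notes name cutadapt 3.5, Bowtie 1.1.2 and the build hg38; read counter, pseudocount, scaling and filters are not given in the sources used here. Groups come from the labels. The column header calls the replicates biological; the labels do not say what separates them, so p-values measure only the spread between these samples.

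Guide values were averaged per gene and per junction, and the mean of 2 replicates was tested against 0 with limma 3.58.1 in R 4.3.3, each day alone, over all genes or junctions with at least 3 guides and all guides, with Benjamini-Hochberg adjustment and a threshold of 0.05. The fits were also run on data simulated from their own fitted spread with independent errors, which could not show how well that spread holds here. The planned test for counts was not needed. The rule for names takes every member, its lowest and highest guide by Day 21 mean and any of its junctions; other guides shown were chosen after their values were seen. Members and lists were chosen with earlier results of these data known. In every library, 100% of the values were a library constant plus log2 of a quotient of whole numbers (denominator up to 2000, relative tolerance 1e-09), which gave the implied numbers; they are lower bounds, and PCR reads are not independent molecules.

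Replicate numbers pair the libraries, since each fold change is taken against Day 0 of its own replicate. Across member guides, deviations from the day means correlated at 0.51 (Day 7 with Day 14), 0.39 (Day 7 with Day 21) and 0.65 (Day 14 with Day 21). Noise in the shared Day 0 library alone makes such values positive, so they are a description and do not test the pairing. Alternatives tried are given in the closing section. STAG2 and the 9 member junctions under 3 guides were left out of the tests of members; guide sequences were not used here.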

Additional observations from a re-analysis of the deposited data

Results flagged for a closer look

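The change from Day 7 to Day 21 was itself tested within replicates (limma, adjusted p under 0.05). NIPBL passed, with −1.02 (−1.11 in replicate 1 and −0.93 in replicate 2), but not with the median of guides (−0.83, limma adjusted p 0.116) or centred on all guides (−0.75, adjusted p 0.0535). The junction fit of this change gave every junction the same standard error, 0.34. Its p-values thus take no account of how far apart a junction's own replicates lie. At junction level 30 of the 101 tested member junctions passed, all toward lower values (29.7%, against 23.2% of all junctions tested), of which 17 were in NIPBL, 5 in SMC6, 3 in RAD21, 2 each in SMC2 and NCAPG and 1 in NSMCE1. The count fell to 14 with the median of guides (13.9%, against 14.8% of all junctions), to 15 centred on all guides (14.9%, against 15.2%) and to 15 with all days in 1 fit (14.9%, against 13.2%), so the order against all junctions turned in the first 2 of these.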

How the results depend on the processing

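Counts of calls depended on the fit (limma, adjusted p under 0.05). Fits of all days together treat days that share a Day 0 library as independent. The block also takes a constant difference between the replicates out of the spread. The fit of genes with at least 20 guides gave all 7 members the same SE at Day 7 and for Day 21 minus Day 7, whatever their own spread. Of 1223 genes, 262 were called at Day 21, 25 with the median of guides, 63 with values centred on all guides, 513 with all days in 1 fit and 625 when that fit had the replicate number as a block. Of the 7 members 1 was called, against 0 with the median (1 at an unadjusted p under 0.05), 0 centred on all guides (2 unadjusted), 5 in the shared fit, 6 with the block, 2 with guides of an implied Day 0 number of at least 50, 2 with genes of at least 5 guides and 6 with at least 20, the last chosen after seeing the data. At Day 14, 279 genes became 89 with the median, 174 centred on all guides and 495 with the block. The 1 member called there became 0 with the median (0 unadjusted), 0 centred on non-targeting guides (3 unadjusted), 0 centred on all guides (1 unadjusted), 3 in the shared fit, 3 with the block, 2 at implied numbers of at least 50, 3 at 5 guides and 4 at 20 guides. At Day 7, 49 genes became 1 centred on all guides, 0 in the shared fit (110 unadjusted), 7 with robust empirical Bayes, 0 at implied numbers of at least 50 (166 unadjusted) and 77 at 5 guides. For Day 21 minus Day 7, 302 genes became 46 with the median and 120 centred on all guides, and the 1 member became 0 with the median (1 unadjusted), 0 centred on all guides (1 unadjusted), 2 in the shared fit, 3 with the block and 6 at 20 guides. Junctions called at Day 21 went from 1677 to 2057 with all days in 1 fit and to 2821 when the block was added (members from 28 to 36 and 54, the last 50 lower and 4 higher). Guides went from 5286 to 5748 and 10955 (members from 76 to 103 and 195, the last 161 lower and 34 higher).

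Day 21 means that passed only under an alternative were RAD21 at −0.75 (shared fit, block, 5 or 20 guides) and −0.79 (implied numbers of at least 50), SMC2 at −0.44, NCAPG at −0.44 and SMC6 at −0.60 (shared fit, block, 20 guides) and NSMCE1 at −0.43 (block, 20 guides). NIPBL no longer passed at −0.85 with the median and −0.76 centred on all guides, a centring that moved the median gene from −0.28 to 0.030. The RAD21 call at Day 14 was lost at −0.024 (median), −0.58 (non-targeting) and −0.36 (all guides). Signs turned for RAD21 with the median (0.068 at Day 21, 0.093 for Day 21 minus Day 7). They also turned near 0 for SMC2 at Day 7 (−0.0086 with the median, −0.00061 centred on non-targeting guides, −0.0061 at implied numbers of at least 50), NCAPG at Day 7 (0.023 centred on all guides), NCAPH at Day 14 (0.13 centred on all guides) and Day 7 (−0.0054 centred on non-targeting guides, −0.0092 at implied numbers of at least 50), and SMC6 at Day 7 (0.0026 with the median, 0.012 centred on all guides). The cause of these changes was not tested. Leaving out a replicate leaves 1 value and no test, and gave Day 21 means from −1.07 to −1.07 for NIPBL, −0.89 to −0.61 for RAD21, −0.57 to −0.31 for SMC2, −0.48 to −0.40 for NCAPG, 0.057 to 0.21 for NCAPH, −0.66 to −0.53 for SMC6 and −0.73 to −0.13 for NSMCE1. Guides at an implied number of 1 have only a bound on their loss.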
